A study of Mus musculus with 27 samples.

Results

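Retnla, Mgl2, Ear2, Tgm2, Pparg, Klf9 and Il10 are genes linked to the alternative activation of macrophages, and their RNA was measured in macrophages sorted from the dura mater of mice with different T cells. The genes were chosen by name: they are the 7 rows, of 41388 in the deposited count table, whose Ensembl identifiers map to these symbols. All 7 passed the filter on low counts, a mean normalized count of at least 10, as did 12661 genes in all.

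All mice were Rag1 ko animals of the B6 strain, aged 16 to 19 weeks, which make neither T nor B cells. In the no T-cell group, labelled steady state, nothing was transferred (6 libraries, 4 female and 2 male). Every other group had received T cells 6.5 weeks before, and these were total B6 T cells (5 libraries, 4 female and 1 male), Tbet ko T cells (2, female), IFNg ko T cells (2, female), IL6Ra ko/IL21R ko T cells (7, 3 female and 4 male), IL-17AF ko T cells (2, female) or IL22 ko T cells (3, 2 female and 1 male). The deletions are in the transferred T cells and not in the macrophages, so no member was itself a target. F1 and M1 stand for the first female and the first male library of a group. Which surface markers were used for the sort is not stated in these sources. The labels do not say whether libraries of a group come from separate animals, so p-values measure only the spread between these libraries, which may be technical.

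Alternative activation is the state that macrophages enter when interleukin-4 or interleukin-13 engages a receptor containing IL-4Ra and activates the transcription factor STAT6. Several of the genes listed here are standard readouts of that state in the mouse, while Klf9 is a target of the glucocorticoid receptor and Il10 encodes a cytokine that restrains inflammation. The dura, the outermost of the meninges, holds resident border macrophages, and interferon-gamma from T cells drives the opposing, classical state.

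The sequences just upstream of the gene starts show which members carry letters that STAT or nuclear receptor proteins are known to bind. RefSeq's table for GRCm38.p6 held entries for 5 of the 7 members, namely Retnla, Mgl2, Ear2, Pparg (3 starts) and Klf9. The 250 bases before each start were searched on both strands for 5 motifs. These were TTCNNNNGAA (the STAT6 spacing), TTCNNNGAA (the general STAT spacing), GNACANNNTGTNC (glucocorticoid receptor), AGGTCANAGGTCA (the direct repeat of PPAR-gamma with its RXR partner) and AGGTCA alone, the hexamer that the direct repeat contains. Retnla and Klf9 are printed because they hold the STAT matches, and Mgl2, the most abundant member, because it holds none. Capitals mark a motif match, and bases that GENCODE M21 places inside the gene are left off.
Retnla, chr16:48842359-48842550, + strand: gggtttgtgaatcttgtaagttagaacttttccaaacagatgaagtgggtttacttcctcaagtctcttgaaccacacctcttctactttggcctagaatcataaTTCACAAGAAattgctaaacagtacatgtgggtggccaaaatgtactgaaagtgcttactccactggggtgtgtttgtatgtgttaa
Klf9, chr19:23140976-23141225, + strand: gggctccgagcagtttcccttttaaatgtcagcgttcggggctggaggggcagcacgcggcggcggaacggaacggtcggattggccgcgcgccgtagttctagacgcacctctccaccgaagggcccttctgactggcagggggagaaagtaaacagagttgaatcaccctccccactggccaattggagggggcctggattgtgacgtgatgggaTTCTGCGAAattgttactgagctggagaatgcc
Mgl2, chr11:70130107-70130328, + strand: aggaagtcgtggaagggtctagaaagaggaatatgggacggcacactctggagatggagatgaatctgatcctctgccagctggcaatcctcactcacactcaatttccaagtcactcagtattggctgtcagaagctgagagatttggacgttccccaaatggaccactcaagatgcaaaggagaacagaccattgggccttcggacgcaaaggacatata

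The Retnla match, TTCACAAGAA, begins at position -145 from the RefSeq start, and its motif occurs in 5.85% of the 32851 stretches of this length in the table. The Klf9 match, TTCTGCGAA, begins at -33, and its motif occurs in 7.02% of them. AGGTCA was found once in Retnla (at -50, inside the part left off) and once before each of 2 of the 3 Pparg starts (at -28 and -9). The Pparg matches also lie inside the gene as GENCODE M21 places it. The motif occurs in 14.0% of all stretches, a share per stretch, and Pparg had 3 stretches searched. Neither the glucocorticoid motif (0.387% of stretches) nor the direct repeat (0.0335%) was found before any of the 5 genes, and Mgl2 and Ear2 held none of the 5 motifs. A match describes these letters only, and no binding was measured.

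The libraries were not alike, and libraries of the same T-cell group also differed. Totals ran from 6902602 to 19966749 counts. The summed level of 84 ribosomal protein genes fell into 3 ranges, which define 3 sets of libraries: set A with 26859 to 32874 CPM (counts scaled to the same total in each library), set B with 11093 to 15508 and set C with 7212 to 8566. Set A holds 4 no T-cell and 3 total T libraries, and set B holds 2 no T-cell, 2 total T, 6 IL6Ra ko/IL21R ko and all 3 IL22 ko libraries. Set C holds all Tbet ko, IFNg ko and IL-17AF ko libraries and IL6Ra ko/IL21R ko M4. The only group with libraries both in set C and outside it is IL6Ra ko/IL21R ko, through M4. Any model that includes the set as a term therefore takes the level of set C from that 1 library. Set C has no control library, so for these 3 groups the T-cell genotype and the library set cannot be told apart. Fibroblast markers (7 of 7 detected) summed to 2320 to 3732 CPM in set C and to at most 1463 CPM elsewhere. Macrophage markers were abundant throughout, their 12 genes summing to between 22734 and 36653 CPM, the labelled cell type. Column names raise the possibility that the Tbet ko pair comes from 1 animal and that M4 is a pool, and 3 of the IL6Ra ko/IL21R ko columns carry a prefix whose meaning is not given. IFNg ko F1 had the fewest genes detected, 13225, and 166 genes at a single count, where the other libraries had 369 or more.

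Each comparison used edgeR's quasi-likelihood test with Benjamini-Hochberg adjustment over all 12661 genes and sex as a covariate. A call means an adjusted p, written q, under 0.05. Of the 7 members, 5 differed somewhere among the 7 groups, where 38% of all genes tested did. They were Tgm2 (q = 2.38e-05), Ear2 (q = 0.00101), Klf9 (q = 0.00651), Retnla (q = 0.0360) and Mgl2 (q = 0.0464). Pparg (q = 0.447) and Il10 (q = 0.269) did not pass. Mgl2's call was the least secure, since it held in 6 of the 27 fits that each left out a library, against 22 for Retnla, 26 for Klf9 and 27 for both Tgm2 and Ear2. Klf9's was lost without IFNg ko F1 (q = 0.0784). Retnla's was lost without no T-cell F2 or F3, Tbet ko F2 or either IL-17AF ko library (highest q = 0.139), and Mgl2's q without 1 library reached 0.157.

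**Figure D1:**
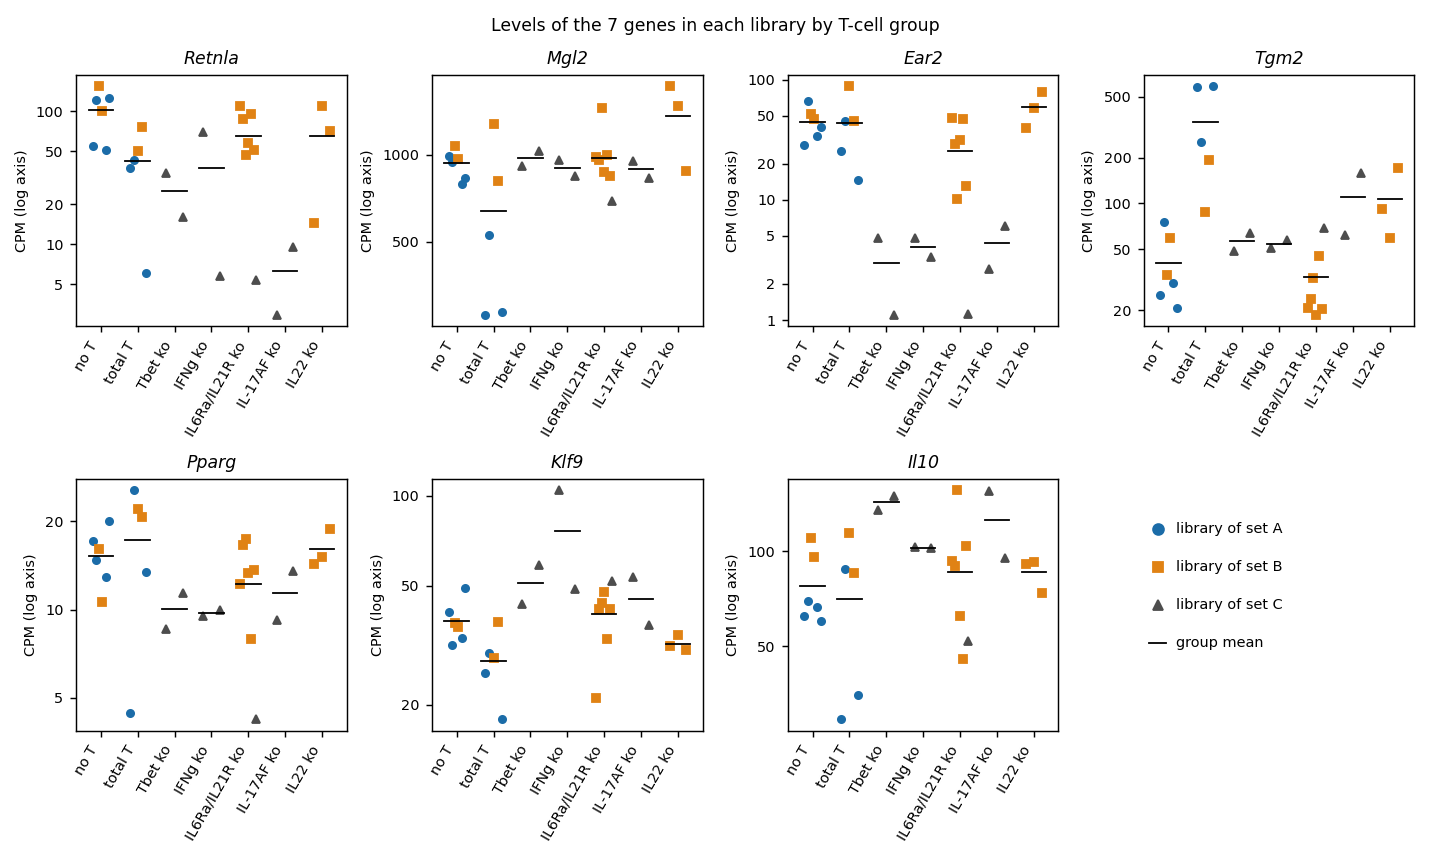
CPM of each gene in each of the 27 libraries (log axis) by T-cell group, with point shape and colour for the library set and a bar for the group mean. Tgm2 stands highest with total T cells, and Ear2 lies between 1.10 and 6.11 CPM in all 7 libraries of set C.

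Per length of exon, the members differed widely in level. Median CPM per kb over the 27 libraries was 448 for Mgl2, 85.2 for Retnla, 69.8 for Il10, 43.5 for Ear2, 12.8 for Tgm2, 7.82 for Klf9 and 4.57 for Pparg. The CPM level of Ear2 varied most, 80.2-fold between its lowest and highest library, and that of Retnla 52.3-fold. Tgm2 varied 31.7-fold, while Mgl2, Pparg, Klf9 and Il10 varied between 5.33-fold and 6.17-fold.

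Tgm2 (ENSMUSG00000037820, chromosome 2, 158116402 to 158146436, minus strand) encodes transglutaminase 2, an enzyme that crosslinks proteins. It was the member that rose with total T cells. With no T cells it lay between 20.6 and 75.7 CPM (median 32.1, n = 6), and with total T cells it stood at 580, 254, 87.9, 193 and 589 CPM. The 5 total T libraries all lay above the 6 without T cells. Group means were 341 ± 230 CPM and 40.7 ± 21.7 CPM (SD). The fitted log2 fold change was 3.02 ± 0.46 (SE, q = 8.75e-05), an 8.10-fold rise, and Tgm2 was the 1 of 7 members called, higher, where 21.1% of genes were called, 11.5% higher and 9.6% lower. Within set A the log2 difference was 3.67 (q = 0.00224), and within set B, with 2 libraries against 2, it was 1.60 and not called (q = 0.106). In a bulk measurement such as this, a change in the number of expressing cells and a change in RNA per cell cannot be told apart.

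With IL6Ra ko/IL21R ko T cells Tgm2 was low. The 7 libraries ranged from 18.6 to 69.6 CPM with a median of 23.6, below every total T library. Against total T cells the log2 fold change was -3.50 ± 0.45 (q = 9.31e-06), and it was -2.62 (q = 0.00145) within set B and -3.72 without M4. Border macrophage markers were higher in the same comparison (12 of 14 called), monocyte-derived markers lower (10 of 11), and the 6 tested neutrophil markers lower, with sums of 69.8 to 98.5 CPM against 104 to 451 CPM. Fibroblast markers were higher (7 of 7), with sums of 372 to 3732 CPM (median 632) against 248 to 404 CPM, which overlap. The highest of these sums is that of M4, of set C. The part of these marker lists in the Tgm2 difference was not tested. Against no T cells it was -0.49 ± 0.43 (q = 0.735), and the libraries of the 2 groups overlapped. The pair of Tbet ko libraries had 49.0 and 64.0 CPM and the IFNg ko pair 51.0 and 57.6 CPM, all below the lowest total T library and inside the range without T cells. Their log2 fold changes against total T cells were -2.46 ± 0.70 (q = 0.0103) and -2.52 ± 0.70 (q = 0.00741). Both comparisons set libraries of set C against sets A and B, and with the library set as a term, which rests on M4, they were -3.40 (q = 0.165) and -3.46 (q = 0.121). The Tbet ko call was lost without either library of its pair (highest q = 0.121) and the IFNg ko call without F1 (q = 0.0904).

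The IL-17AF ko pair (62.4 and 157 CPM) and the IL22 ko libraries (91.6, 59.1 and 170 CPM) overlapped the total T range. Their log2 differences in Tgm2 from total T cells, -1.51 ± 0.66 (q = 0.0962) and -1.75 ± 0.56 (q = 0.0976), were not called. Without total T F3, the lowest of its group, both were called (q = 0.0345 and q = 0.0302). Ordered by mean, Tgm2 ran from total T through IL-17AF ko (110 CPM), IL22 ko (107), Tbet ko (56.5), IFNg ko (54.3) and no T cells to IL6Ra ko/IL21R ko (32.9), and each neighbouring pair of groups overlapped.

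Of the 75-base windows of Tgm2 transcripts, 17.1% lie where the gene overlaps Rprd1b or Gm20412 on the other strand, and unstranded reads there cannot be assigned. Rprd1b itself had 28.2 CPM with total T cells and 29.9 CPM without (log2 difference -0.08 ± 0.13, q = 0.722), and Gm20412 had no counts in the 27 libraries.

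**Figure D2:**
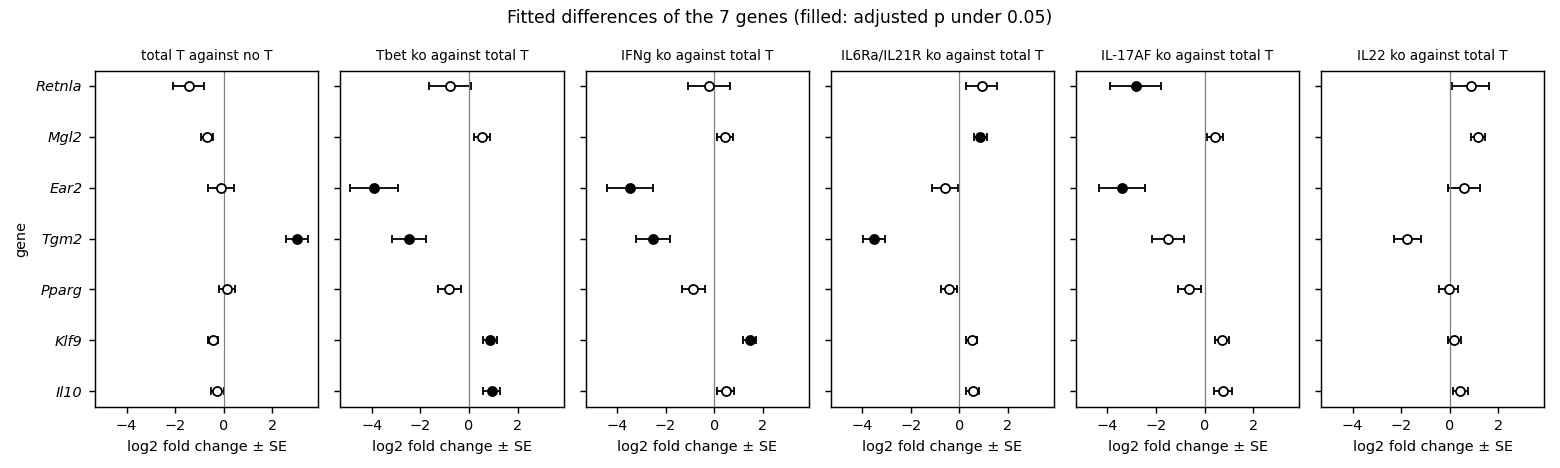
Log2 fold changes ± SE of the 7 genes in 6 comparisons, filled where the adjusted p was under 0.05. The 5 comparisons with a ko group share the total T libraries, so they are not independent of each other.

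Markers of other cell states moved with total T cells too. Of 14 border macrophage markers 12 fell, their sum going from between 11055 and 15832 CPM without T cells to between 2834 and 9294 CPM with total T cells. Of 11 monocyte-derived markers 10 rose, from 803 to 1480 CPM up to 2048 to 9639 CPM. Of 7 microglia markers 5 fell. The sums of 3 other lists did not overlap between the groups either. Fibroblast markers (2 of 7 called lower) summed to 433 to 1463 CPM without T cells and 248 to 404 CPM with total T cells. Dendritic cell markers (4 of 10 called higher) had 956 to 1226 and 1307 to 1653 CPM, and Ly6C-low monocyte markers (1 of 8 called higher) 990 to 1147 and 1214 to 1496 CPM. The part of these markers in the Tgm2 difference was not tested.

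Mgl2 (ENSMUSG00000040950, chromosome 11, 70130329 to 70137550, plus strand) encodes CD301b, a C-type lectin that binds galactose-type sugars. Per length it was the most abundant member. The 6 libraries without T cells were close together, from 792 to 1073 CPM (median 954). Total T libraries had 279, 529, 1279, 809 and 286 CPM. The 3 low ones (F1, F2 and M1) are those of set A. Of the set B pair, F4 lay within the range without T cells and F3 above it. Over all libraries the log2 difference was -0.68 ± 0.25 (q = 0.0510), which was not called. Without total T F3 or F4 it was called, and reached -1.05 (q = 0.000635). It was -1.36 (q = 0.00450) in set A and 0.04 (q = 0.961) in set B. The difference between the effects of the 2 sets, a test added after the values were seen, was 1.38 ± 0.35 on the log2 scale and did not pass over all genes (q = 0.394, edgeR). For Tgm2 the same difference was -2.08 ± 0.73 (q = 0.411). By edgeR 0 of 12661 genes passed this test, and 1281 had an unadjusted p under 0.05.

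Against total T cells, Mgl2 was 1.82-fold higher with IL6Ra ko/IL21R ko T cells (log2 0.86 ± 0.25, q = 0.0120), and with Tgm2 it made 2 of 7 members called where 28.2% of genes were, 13.3% higher and 14.8% lower. The 7 libraries ran from 693 to 1445 CPM (median 956) and overlapped both the total T range and the range without T cells. The call was lost without total T M1 (log2 0.66, q = 0.0880), and within set B the difference was 0.20 (q = 0.661). The IL22 ko libraries, at 1724, 1472 and 876 CPM, had the highest mean of the 7 groups, 1357 ± 435 CPM, and their log2 difference from total T cells of 1.18 ± 0.28 missed the threshold (q = 0.0567). It was called without total T F3 or F4 (lowest q = 0.00256). With Tbet ko, IFNg ko and IL-17AF ko T cells too, Mgl2 was called higher than with total T cells once F3 was left out (q = 0.00835, 0.0144 and 0.0247). These groups lie wholly in set C, with means of 970, 901 and 889 CPM. The total T mean was 365 CPM in set A, below all of these, and 1044 CPM in set B, above all of them. The 3 IL22 ko libraries are of set B, and within it their Mgl2 difference from total T cells was 0.50 (q = 0.709). No neighbouring groups in the order of Mgl2 levels were separate. Clec10a, the near relative that encodes CD301a, matches 6.56% of the 75-base windows of Mgl2 transcripts, and its log2 difference with total T cells was -0.46 ± 0.27 (q = 0.240).

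**Figure D3:**
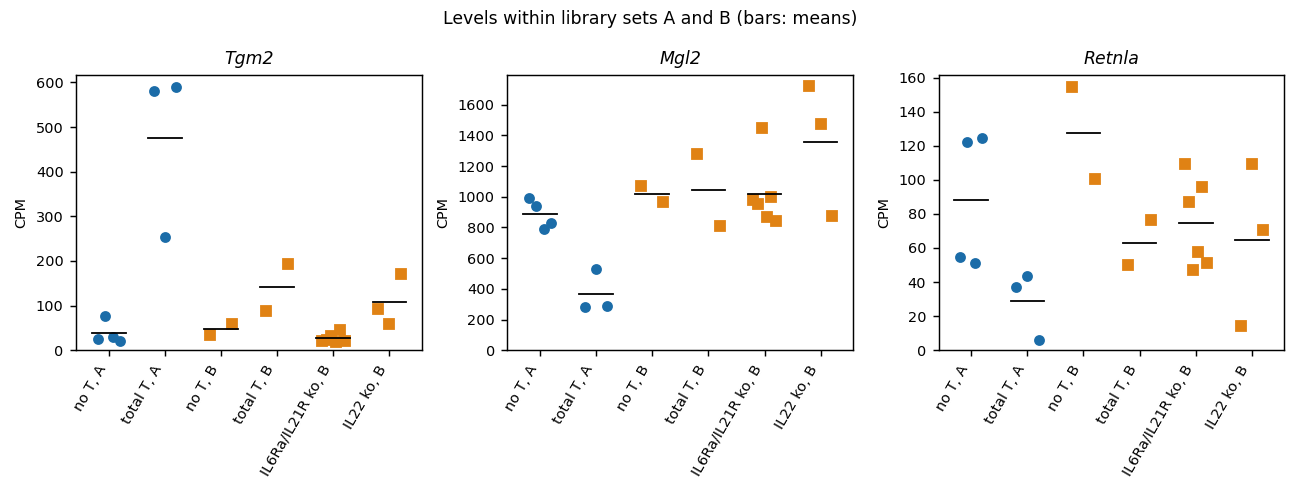
CPM of Tgm2, Mgl2 and Retnla in the libraries of set A (circles; no T and total T) and set B (squares; those groups, IL6Ra ko/IL21R ko and IL22 ko), with means as bars. In set A the 3 total T libraries had 279 to 529 CPM of Mgl2 against 792 to 991 CPM without T cells, while in set B they had 809 and 1279 CPM against 969 and 1073 CPM.

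Retnla (ENSMUSG00000061100, chromosome 16, 48842551 to 48844461, plus strand) encodes the secreted resistin-like molecule alpha, a classical product of STAT6 signalling. Without T cells it had 50.9 to 154 CPM (median 111), and with total T cells 37.2, 43.3, 49.9, 76.2 and 6.14 CPM. Of the 5 total T libraries F4 lay within the range without T cells, F1, F2 and F3 just under it and M1 far below. The log2 difference of -1.44 ± 0.64 was not called (q = 0.114), and it had the same sign in set A (-2.03, q = 0.0541) and set B (-1.01, q = 0.455). The IL-17AF ko libraries, at 2.95 and 9.61 CPM, had the lowest group mean, 6.28 CPM. Against no T cells they differed by -4.28 ± 1.12 (log2, q = 0.0270) and against total T cells by -2.84 ± 1.04 (q = 0.0480). With the library set as a term, which rests on M4, these values were -1.06 (q = 0.988) and 0.42 (q = 0.994). The call against no T cells was lost without either IL-17AF ko library (q = 0.253 without F1, 0.177 without F2). Of the 7 fits against total T cells with 1 library left out, only that without total T M1 kept the call, and q reached 0.331. IL6Ra ko/IL21R ko M4, also of set C, had 5.43 CPM, while the 6 set B libraries of its group had 47.0 to 109 CPM. The other set C pairs spread widely, with 34.2 and 16.0 CPM for Tbet ko and 69.5 and 5.75 CPM for IFNg ko.

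Ear2 (ENSMUSG00000072596, chromosome 14, 44102654 to 44103534, plus strand) encodes a secreted ribonuclease of the eosinophil-associated family. With total T cells it had 25.6, 45.3, 88.5, 45.4 and 14.5 CPM and with no T cells 28.4 to 66.6 CPM (median 43.6), and no difference was called (log2 -0.12 ± 0.54, q = 0.909). It was very low in 3 groups, with 4.84 and 1.10 CPM for Tbet ko, 4.82 and 3.33 CPM for IFNg ko and 2.66 and 6.11 CPM for IL-17AF ko, from 11 to 49 counts a library. Against total T cells the log2 fold changes were -3.90 ± 0.98 (q = 0.00458), -3.47 ± 0.95 (q = 0.00673) and -3.39 ± 0.94 (q = 0.0113). Against no T cells they were -4.02 ± 0.98 (q = 0.0171), -3.58 ± 0.96 (q = 0.0181) and -3.51 ± 0.95 (q = 0.0309). All 3 groups are of library set C. IL6Ra ko/IL21R ko M4, the library of set C from another group, had 1.12 CPM (14 counts), where the 6 set B libraries of that group had 10.2 to 47.9 CPM. With the library set as a term all 6 differences had a positive sign, from 0.28 to 0.99, and none was called, but the level of set C in that fit comes from M4 alone, which has 14 Ear2 counts and may be a pool. Each call rests on a pair of libraries. Those against no T cells were lost without either library of the pair (q from 0.0867 to 0.271), as were those of IFNg ko and IL-17AF ko against total T cells (q from 0.0568 to 0.157). That of Tbet ko against total T cells was lost without F2 (q = 0.0843).

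Of the 75-base windows of Ear2, 23.4% also occur in Ear1, Ear10 or the pseudogenes Ear-ps2 and Ear-ps9, so its counts depend on how the authors treated reads with several matches. Ear1 and Ear6 had at most 12 counts in any library, and Ear10 and Ear14 had none. Eosinophil markers were scarce: Epx was at 0 in 22 of 27 libraries and Il5ra in 22, and the 8 markers summed to at most 34.8 CPM.

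**Figure D4:**
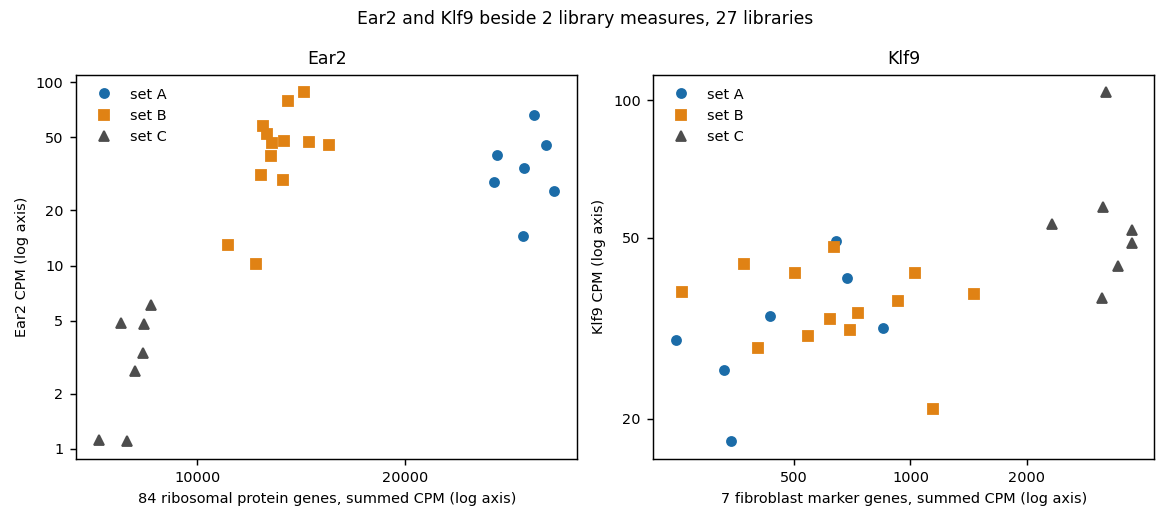
Left, Ear2 CPM against the summed CPM of 84 ribosomal protein genes, and right, Klf9 CPM against the summed CPM of 7 fibroblast markers, in 27 libraries with log axes. Set C (triangles) holds the 7 lowest Ear2 values and the 7 highest fibroblast sums.

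Klf9 (ENSMUSG00000033863, chromosome 19, 23141226 to 23168134, plus strand) encodes a zinc finger transcription factor. It had 31.7 to 49.1 CPM without T cells (median 37.0) and 25.6, 29.8, 28.7, 37.9 and 17.9 CPM with total T cells, a log2 difference of -0.44 ± 0.22 (q = 0.157). The Tbet ko pair (43.4 and 58.4 CPM) and the IFNg ko pair (104 and 48.7 CPM) lay above every total T library. Log2 fold changes against total T cells were 0.87 ± 0.29 (q = 0.0240) and 1.46 ± 0.28 (q = 0.000442). Against no T cells Klf9 was higher with IFNg ko T cells (1.01 ± 0.28, q = 0.0220), but without IFNg ko F1 the values were 0.38 (q = 0.679) against no T cells and 0.82 (q = 0.0958) against total T cells. The Tbet ko call was lost without either of its libraries (q = 0.0529 without F1, 0.236 without F2). With the library set as a term, which rests on M4, no Klf9 difference was called. Fibroblast markers were high in the same libraries, with 3146 and 3444 CPM in the Tbet ko pair and 3199 and 3731 CPM in the IFNg ko pair, against 248 to 404 CPM with total T cells. Their part in the Klf9 difference was not tested. IL6Ra ko/IL21R ko M4, with the same high markers, had 51.9 CPM of Klf9, against 21.0 to 47.6 CPM in the rest of its group.

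Pparg (ENSMUSG00000000440, chromosome 6, 115360951 to 115490399, plus strand) encodes a nuclear receptor for fatty acids that maintains alternative activation. In the 13 comparisons edgeR called it 0 times, with 0 at an unadjusted p under 0.05, and DESeq2 called it 0 times. It had 10.6 to 19.96 CPM without T cells (median 15.4) and 4.45, 25.5, 22.04, 20.6 and 13.4 CPM with total T cells, so the lowest and highest total T libraries bracket all those without T cells. Without total T F1, the lowest, Pparg was called lower with Tbet ko (q = 0.0468) and IFNg ko T cells (q = 0.0322) than with total T cells. Both groups are of library set C. IL6Ra ko/IL21R ko M4, also of set C, had 4.23 CPM, against 7.93 to 17.3 CPM in the rest of its group. Group means lay between 9.74 CPM (IFNg ko) and 17.2 CPM (total T).

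Il10 (ENSMUSG00000016529, chromosome 1, 131019845 to 131024974, plus strand) had 60.1 to 111 CPM without T cells (median 68.1) and 29.3, 87.6, 115, 85.1 and 35.1 CPM with total T cells (log2 -0.27 ± 0.27, q = 0.520). The Tbet ko pair, at 136 and 150 CPM, lay above both groups. Its log2 fold change of 0.94 ± 0.35 against total T cells (q = 0.0440) was called, and against no T cells the value of 0.67 ± 0.35 was not (q = 0.258). The call was lost without sex in the fit (q = 0.0586), in females alone (q = 0.0899), with only the 2 groups in the fit (q = 0.230), with the library set as a term, which rests on M4 (q = 0.495), and without any of 4 libraries (total T F1 and M1, Tbet ko F1 and F2, highest q = 0.191). The other ko groups overlapped total T cells in Il10.

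Counted by comparison, 4 of 7 members were called with Tbet ko T cells against total T cells (Ear2 and Tgm2 lower, Klf9 and Il10 higher), where 30% of genes were (15.8% higher, 14.2% lower). With IFNg ko T cells 3 were called (Ear2 and Tgm2 lower, Klf9 higher) where 36.4% of genes were (17.9% higher, 18.5% lower), and with IL-17AF ko T cells 2 (Retnla and Ear2, lower) where 25% were (13.5% higher, 11.6% lower). For IL22 ko against total T cells edgeR called 0 members and 0.284% of genes (0.197% higher, 0.0869% lower), with 2 members at an unadjusted p under 0.05 (Mgl2 and Tgm2), and DESeq2 called 2. Against no T cells, 1 member was called with Tbet ko T cells (7.3% of genes, 4.46% higher and 2.84% lower), 2 with IFNg ko (13.2%, 6.95% higher and 6.22% lower) and 2 with IL-17AF ko (6.03%, 3.99% higher and 2.05% lower). With IL6Ra ko/IL21R ko T cells edgeR and DESeq2 called 0 members, 0 had an unadjusted p under 0.05, and 1.16% of genes were called (0.126% higher, 1.03% lower). With IL22 ko T cells both tools called 0, 1 had an unadjusted p under 0.05 (Tgm2), and 0.0079% of genes were called, all higher (0% lower). Between males and females both tools called 0 members where edgeR called 0.0474% of genes (0.0316% higher, 0.0158% lower). Il10 (log2 -0.66 ± 0.21) and Mgl2 (-0.58 ± 0.19) had an unadjusted p under 0.05, with q = 0.649 for both.

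The members' median log2 difference was -0.27 for total T against no T cells, where that of all genes tested was -0.03, and 0.51 for IL6Ra ko/IL21R ko against total T cells, where it was 0.03. The 7 genes did not vary as a block over the libraries. Across the 27 libraries Pearson's r of log2 CPM was highest for Retnla with Ear2 (0.73, Spearman's rho 0.73) and Mgl2 with Il10 (0.68, rho 0.52), and lowest for Mgl2 with Tgm2 (-0.62, rho -0.29). Retnla with Ear2 reached 0.87 in set A, 0.27 in set B and 0.38 in set C, and Mgl2 with Tgm2 gave -0.92, 0.11 and -0.33. These coefficients describe libraries that share groups and sets, and carry no test.

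Among all genes tested, those most like each member in log2 CPM over the 27 libraries were found the same way. Tgm2 was most like Tnfaip2 (r = 0.96, rho 0.95), Mmp14 (0.94, rho 0.86) and Nr4a2 (0.94, rho 0.85), and with Tnfaip2 r was 0.99, 0.92 and 0.79 in sets A, B and C. Il10 was most like the chemokine genes Ccl12 (0.89, rho 0.90), Ccl2 (0.83, rho 0.81) and Ccl7 (0.82, rho 0.81), and with Ccl12 r was 0.90, 0.83 and 0.92 in the 3 sets. Mgl2 was most like Hfe (0.87, rho 0.59), C3ar1 (0.87, rho 0.76) and Blnk (0.87, rho 0.57). Genes much like Ear2 included Rack1 (0.91, rho 0.74) and Skint3 (0.90, rho 0.85), and with Rack1 r was -0.27, 0.73 and 0.67 in the 3 sets. Klf9 was most like Aplp2 (0.85, rho 0.83), Pard6g (0.85, rho 0.86) and Nr3c2 (0.85, rho 0.80). Retnla's closest were Gm26772 (0.78, rho 0.54), mt-Nd4 (0.78, rho 0.54) and Trp53 (0.77, rho 0.75), and Pparg's were Clec4a2 (0.73, rho 0.69), Slamf9 (0.71, rho 0.63) and Ckb (0.70, rho 0.50).

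The IL-4 and IL-13 axis upstream of these genes was examined as a list of 11, of which 10 were tested. The ligands were barely detected in these sorted cells, Il4 at 36 counts or fewer and Il13 at 16 counts or fewer in any library. Their supply by other cells of the dura was not measured. Il4ra, the receptor subunit, had 399 ± 82.4 CPM with no T cells and 403 ± 50.6 CPM with total T cells (log2 0.03 ± 0.15, q = 0.934). Stat6 had 191 ± 22.9 and 189 ± 20.2 CPM (log2 0.02 ± 0.10, q = 0.922). With total T cells 4 genes rose and 0 fell: Il2rg, the shared cytokine receptor chain (log2 1.81 ± 0.26, q = 6.09e-05), the kinases Jak3 (1.15 ± 0.16, q = 3.88e-05) and Tyk2 (0.61 ± 0.10, q = 0.000224), and Socs1, a feedback inhibitor of cytokine signalling (1.79 ± 0.32, q = 0.000368). These 4 also serve other cytokines. Over all genes tested, 11.5% were called higher and 9.6% lower with total T cells. With IL6Ra ko/IL21R ko against total T cells the same 4 fell and 0 rose. The Tbet ko, IFNg ko and IL-17AF ko groups had Il4ra higher than total T cells (log2 0.92, 0.66 and 0.86, with q = 0.00182, 0.0156 and 0.00463), all in set C.

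Of 14 other alternative activation genes tested, 8 rose and 2 fell with total T cells, where 11.5% and 9.6% of all genes did. Their median log2 difference was 1.87, and that of all genes was -0.03. Arg1 and Chil3, outside the rule for named genes, were picked after their values were seen. Arg1, encoding the arginine-consuming enzyme arginase 1, rose by 5.08 ± 1.503 (q = 0.0188) on the log2 scale but was uneven, from 0 to 92.6 CPM with total T cells and from 0 to 3.89 CPM without. Chil3, encoding the chitinase-like protein Ym1, rose by 3.93 ± 1.17 (q = 0.0188), from 6.96 to 139 CPM up to 71.0 to 2447 CPM. The 6 genes with the smallest q include Il1rn, the interleukin-1 receptor antagonist (1.93 ± 0.38, q = 0.000916), Slc7a2, an arginine transporter (2.88 ± 0.61, q = 0.00152), and the chemokine gene Ccl22 (3.06 ± 0.74, q = 0.00459). Ccl24, encoding an eosinophil attractant, fell by 2.54 ± 0.51 on the log2 scale (q = 0.00115), and Mrc1, encoding the mannose receptor CD206, fell by 1.00 ± 0.27 (q = 0.0104). Mrc1 is also one of the border macrophage markers and Chil3 one of the monocyte-derived markers given above. With IL6Ra ko/IL21R ko against total T cells 3 rose and 8 fell, Il1rn by -2.56 ± 0.38 (q = 3.39e-05), Chil3 by -6.50 ± 1.35 (q = 0.000790) and Ccl24 by 3.02 ± 0.54 (q = 0.000204). In the same comparison 13.3% of all genes tested were called higher and 14.8% lower. Against no T cells 0 of 14 were called with IL6Ra ko/IL21R ko T cells, where 1.16% of all genes were.

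**Figure D5:**
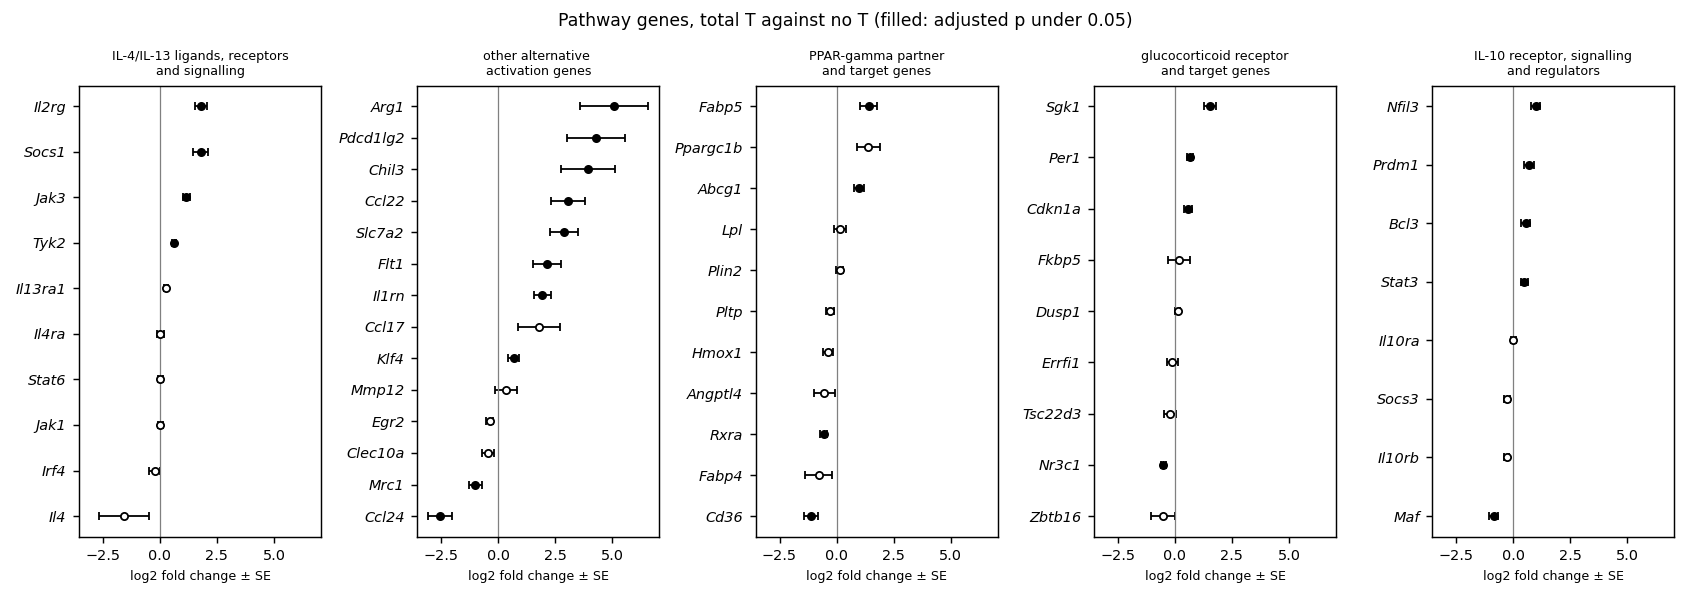
Log2 fold changes ± SE, total T against no T cells, for the tested genes of 5 lists, filled where the adjusted p was under 0.05. Il4ra and Stat6 sit at 0.03 and 0.02, and the alternative activation list spans from -2.54 (Ccl24) to 5.08 (Arg1).

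Around Pparg, 2 of 11 partner and target genes rose with total T cells and 2 fell, where 11.5% and 9.6% of all genes did. Rxra, its dimer partner, fell by 0.57 ± 0.14 on the log2 scale (q = 0.00565) and Cd36, a fatty acid transporter, by 1.12 ± 0.30 (q = 0.00870), while the cholesterol exporter gene Abcg1 rose by 0.99 ± 0.23 (q = 0.00344) and the lipid carrier gene Fabp5 by 1.40 ± 0.38 (q = 0.00954). Around Klf9, the glucocorticoid receptor gene Nr3c1 fell by 0.50 ± 0.12 (q = 0.00298), and of the 9 genes of its list 3 rose (Sgk1, Per1 and Cdkn1a). Sgk1, encoding a kinase induced by glucocorticoids and other stimuli, rose by 1.55 ± 0.26 (q = 0.000237). Around Il10, Il10ra was not called (log2 0.01 ± 0.10, q = 0.958). Of 8 receptor, signalling and regulator genes 4 rose, Nfil3 most clearly (0.98 ± 0.20, q = 0.00106), and 1 fell, Maf, which encodes a transcription factor known to drive Il10 (-0.86 ± 0.18, q = 0.00156). With IL6Ra ko/IL21R ko against total T cells, Nr3c1 (0.70 ± 0.12, q = 0.000106), Rxra (0.70 ± 0.14, q = 0.000639) and Maf (0.99 ± 0.19, q = 0.000322) were higher. Both comparisons use the same total T libraries. For IL22 ko against total T cells none of the 52 tested genes of these 5 lists was called.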

How the data were processed

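RNA of sorted dural macrophages was sequenced in 27 libraries of 7 T-cell groups. The table the authors deposited is named as normalized, but its values are whole, hold every low number and differ in total between libraries. They were therefore treated as raw read counts per gene, and if they had been rescaled and rounded, the CPM and tests here would be affected. Per the submitters' processing notes they used STAR 2.4.0j, featureCounts, DESeq2 1.20.0 and GRCm38, and the counting of multi-mapped reads is not stated there. Per the labels' protocols reads were single-end, unstranded and 75 bases long. Totals of 6902602 to 19966749 counts limit the precision for low genes. Within-group pairs of libraries differed beyond sampling noise (chi-square per degree of freedom from 8.97 to 138 over 52 pairs), so none was merged.

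Symbols were matched from the reference table (40254 of 41388 rows). edgeR 4.0.16 in R 4.3.3 fitted group and sex over all libraries, with TMM scaling, to the 12661 genes whose normalized counts averaged 10 or more. The fits kept edgeR's default prior count, and the log2 CPM used for correlations had a prior count of 2. Levels of genes and marker sums are CPM of TMM-scaled library totals. Only the ribosomal protein sums that define the library sets use plain totals. The alternatives were other size factors, DESeq2 1.42.0, no filter, no sex term, females alone, fits of fewer libraries, the library set as a term or as a split, and each library left out. The edgeR fit was tried on simulated counts for total T against no T cells only. That simulation had no library-set effect, so it does not bear on the groups of 2 libraries in set C.

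All 7 members are named. From other lists at most 6 genes each were named, by the smallest adjusted p, along with defining ligands and receptors, and 3 genes most like each member by Pearson's r, of which 1 is not reported here. The members and lists were chosen with earlier results of these data known.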

Additional observations from a re-analysis of the deposited data

Results flagged for a closer look

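Mgl2 in IL6Ra ko/IL21R ko F3 stood at 1445 CPM, apart from the other 6 libraries of its group, the nearest of which had 997 CPM. It was the 1 value of 21 tested by Dixon's criterion, over the 7 members and the groups of 4 to 10 libraries, that lay beyond the 95% limit, and chance alone gives about 1 in 20.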

How the results depend on the processing

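No paired analysis was possible because the columns of the count table do not carry the replicate numbers of the sample titles. Of the 17 calls of a member in a comparison of 2 groups, recomputed under the other settings named with the processing, 96 of 123 values kept direction and call, 20 kept direction only and 7 reversed. With 1 library left out 107 of 138 kept both, 31 lost the call and 0 reversed. The 7 reversals came with the library set as a term, where the level of set C comes from IL6Ra ko/IL21R ko M4 alone (14 Ear2 counts): Ear2 became 0.49 (Tbet ko), 0.92 (IFNg ko) and 0.99 (IL-17AF ko) against total T cells and 0.28, 0.70 and 0.77 against no T cells, and Retnla 0.42 (IL-17AF ko against total T). In that fit 1 member differed among the 7 groups, 3 were called for total T against no T, 1 for IL6Ra ko/IL21R ko against total T, and 0 for the set C groups against either control. Without the filter the counts of members were 3 (total T against no T), 6, 5 and 3 (IL6Ra ko/IL21R ko, IL-17AF ko and IL22 ko against total T), 3, 3 and 2 (Tbet ko, IL6Ra ko/IL21R ko and IL22 ko against no T) and 4 (males against females). Without the sex term they were 3 among the 7 groups and 1 each for IL6Ra ko/IL21R ko and IL-17AF ko against total T. In females alone they were 2 (Tbet ko) and 1 (IL6Ra ko/IL21R ko) against total T. Total T against no T gave 2 members in set A and 0 in set B, and IL6Ra ko/IL21R ko against total T gave 1 in set B. With only the 2 groups in the fit the counts were 2 (total T against no T), 1 and 1 (Tbet ko and IL6Ra ko/IL21R ko against total T) and 2 (Tbet ko against no T). DESeq2 gave 2 for total T against no T and 2 for IL22 ko against total T. With 1 library left out the counts ran from 3 to 5 among the 7 groups, 1 to 2 for total T against no T, 0 to 5, 0 to 4, 1 to 3, 0 to 4 and 0 to 2 for Tbet ko, IFNg ko, IL6Ra ko/IL21R ko, IL-17AF ko and IL22 ko against total T, 0 to 1, 0 to 2 and 0 to 2 for Tbet ko, IFNg ko and IL-17AF ko against no T, and 0 for the rest. The causes were not tested. Counts over all genes moved too, IL22 ko against total T from 36 to 1219 without the filter and 749 with DESeq2, and Tbet ko, IFNg ko and IL-17AF ko against total T from 3798, 4611 and 3170 to 6, 44 and 3 with the library set as a term. With 1 library left out they ran from 1679 to 2980 for total T against no T. Against total T they ran from 2410 to 3846 (IL6Ra ko/IL21R ko) and from 1 to 800 (IL22 ko). Most counts of members above stand without the share of all genes called in the same fit. They describe the settings and are not results about the members. No fit within set C was run, since it holds no control, and Ear2 rests there on 11 to 49 counts a library.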
